A study of Mus musculus with 6 samples.

Results

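The histone cluster genes are the clustered genes for the linker histone H1 and the core histones H2A, H2B, H3 and H4. They were taken as every gene whose symbol starts with Hist1h, Hist2h, Hist3h or Hist4h, which gave 68 of the 23183 genes measured. By type these were 6 H1, 18 H2A, 19 H2B, 12 H3 and 13 H4 genes. RNA was sequenced from primary lung group 2 innate lymphoid cells (ILC2) of mice whose genotype is given as WT; ILC2 are lymphocytes without antigen receptors that release type 2 cytokines. All cultures received interleukins 2, 7 and 33 at 10 ng/ml for 24 h. The control cultures also received an IgG2b isotype antibody (3 libraries) and the others DTA-1, an antibody that activates the TNF receptor family member GITR (3 libraries). The labels name no strain, age or number of mice, and no unstimulated cells are among the samples used here. They do not tie each library to an animal or culture of its own, so p-values cover only the spread of these samples, possibly technical.

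Each nucleosome wraps DNA around pairs of the 4 core histones, and H1 binds the linker between nucleosomes. Most genes of the clusters are transcribed in S phase, when new DNA has to be packaged, and their mRNAs normally end without a poly(A) tail. The end is instead formed by cleavage just after a short stem-loop, which is bound by the stem-loop binding protein SLBP, with the U7 small nuclear ribonucleoprotein marking the cleavage site. Some cluster genes can also give polyadenylated transcripts from signals farther downstream, and these are made outside S phase as well.

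The clusters are compact. In the GENCODE M21 annotation of GRCm38 (the assembly of mm10), 54 members lay on chromosome 13, 10 on chromosome 3, 3 on chromosome 11 and 1 on chromosome 6. For each gene the transcript with the fewest exons was used. It had a single exon in 66 members and 2 exons in Hist1h2bc and Hist1h2be. One member, Hist3h2bb-ps, is annotated as a processed pseudogene.

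The stem-loop is the feature that sets these mRNAs apart from other mRNAs, so its sequence is shown for members on which the results below turn. The histone stem-loop motif was searched as a 16-base pattern with GG at its start, CC at its end, T at positions 6, 7 and 9, A at position 11 and any base elsewhere, on the sense strand in the first 100 bases after the stop codon. It occurred in 46 of the 51 members with at least 40 annotated bases there in any transcript (90.2%), against 45 of 20713 other coding genes (0.217%). The sites below, from GENCODE M21 transcripts, have the 16 bases of the motif in capitals and up to 5 flanking bases on each side.
Hist1h1c: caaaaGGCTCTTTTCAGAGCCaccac
Hist1h1e: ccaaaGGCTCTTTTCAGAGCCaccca
Hist3h2a: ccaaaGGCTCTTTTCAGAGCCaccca
Hist1h2ag: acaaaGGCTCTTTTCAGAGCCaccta
Hist1h2bj: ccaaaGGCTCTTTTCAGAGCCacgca
Hist1h3c: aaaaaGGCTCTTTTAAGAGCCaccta
Hist1h3e: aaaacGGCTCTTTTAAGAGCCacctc
Hist1h4i: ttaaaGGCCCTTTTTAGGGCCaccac
Hist1h4d: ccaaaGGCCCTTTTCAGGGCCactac
Hist1h4f: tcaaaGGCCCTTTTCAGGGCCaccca
Hist1h4b: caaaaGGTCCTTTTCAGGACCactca
In every site the T at position 6 and the A at position 11 can pair next to the loop. Outside that pair, all H1, H2A, H2B and H3 sites had a stem of GGCTC paired with GAGCC, and they differed in the loop. The H4 sites differed in the stem: 10 had GGCCC with GGGCC, and 2, in Hist1h4b and Hist1h4j, had GGTCC with GGACC. The stem-loop of Hist1h1c and the other members began 22 to 59 bases after the stop codon. In the transcript used for each gene in the comparisons below, which was searched from the stop codon to its end, Hist1h1a, Hist1h2bc and Hist2h2be had at least 40 bases after the stop codon and no match anywhere in them. Another 19 members had under 40 bases there, too few for a search.

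Promoters are shown because many cluster genes lie in pairs that start back to back, with 1 short stretch of DNA between the starts. A RefSeq promoter on GRCm38.p6 (250 bases before to 50 after the start) was matched for 62 members. The motifs searched on both strands were CCAAT, the octamer ATTTGCAT and TATAAA, and none of these overlaps another by its letters. CCAAT was present in 53 of the 62 (85.5%), against 37.4% of all promoters of this length. It was present in all 50 of the matched H1, H2A, H2B and H3 promoters but in 3 of 12 H4 promoters. ATTTGCAT was present in 7 of 18 H2A and 6 of 16 H2B promoters and in no H1, H3 or H4 promoter, against 1.7% of all promoters. TATAAA was present in 56.5% of the members' promoters and in 13.6% of all promoters. In the 4 promoters below the motifs are in capitals, reading ATTGG, ATGCAAAT and TTTATA where a motif lies on the other strand.
Hist1h2ac (chr13:23683910-23684209, minus strand): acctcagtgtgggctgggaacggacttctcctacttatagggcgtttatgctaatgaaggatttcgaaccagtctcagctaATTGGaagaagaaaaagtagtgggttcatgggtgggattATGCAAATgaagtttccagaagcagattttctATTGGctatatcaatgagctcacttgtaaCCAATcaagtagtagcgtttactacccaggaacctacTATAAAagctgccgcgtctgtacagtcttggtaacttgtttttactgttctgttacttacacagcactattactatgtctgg
Hist1h2ak (chr13:21753863-21754162, minus strand): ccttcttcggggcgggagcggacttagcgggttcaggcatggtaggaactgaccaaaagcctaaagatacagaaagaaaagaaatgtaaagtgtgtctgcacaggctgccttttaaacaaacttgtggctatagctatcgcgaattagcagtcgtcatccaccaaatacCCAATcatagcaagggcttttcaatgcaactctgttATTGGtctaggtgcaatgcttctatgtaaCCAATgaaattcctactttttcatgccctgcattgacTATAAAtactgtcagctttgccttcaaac
Hist1h1c (chr13:23738557-23738856, plus strand): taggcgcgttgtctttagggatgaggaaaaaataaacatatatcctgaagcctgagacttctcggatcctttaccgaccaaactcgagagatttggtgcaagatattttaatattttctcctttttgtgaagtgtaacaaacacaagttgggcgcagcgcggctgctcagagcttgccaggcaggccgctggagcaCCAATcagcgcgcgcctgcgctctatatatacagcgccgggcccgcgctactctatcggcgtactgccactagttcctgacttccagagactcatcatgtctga
Hist1h4i (chr13:22041313-22041612, minus strand): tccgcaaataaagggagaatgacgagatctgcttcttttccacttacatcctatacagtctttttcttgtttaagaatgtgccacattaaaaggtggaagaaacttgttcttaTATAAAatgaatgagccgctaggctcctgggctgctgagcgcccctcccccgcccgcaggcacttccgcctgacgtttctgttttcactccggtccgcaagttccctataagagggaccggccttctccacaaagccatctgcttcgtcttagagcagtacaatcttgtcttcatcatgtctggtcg
The first sequence covers the 250 bases between the starts of Hist1h2ac and Hist1h2bc, and the second most of the 295 bases between Hist1h2ak and Hist1h2bn. The third belongs to Hist1h1c, the most abundant member. The fourth belongs to Hist1h4i, the most abundant H4 gene, and holds no CCAAT. A match is a description of the letters, not evidence of binding.

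Histone cluster transcripts were scarce in these libraries. Values were taken as FPKM, fragment counts scaled to transcript length and library depth. The 68 genes together reached 173.1, 114.4 and 157.0 FPKM in isotype libraries 1, 2 and 3. In DTA-1 libraries 1, 2 and 3 they reached 120.2, 132.5 and 119.4 FPKM. Sequencing depth, read from the smallest steps between values, was 20800000 to 22600000 fragments. The members with a length in RefSeq held an estimated 1024, 637 and 1059 fragments in the isotype libraries and 786, 972 and 866 in those given DTA-1. Isotype library 2 was the lowest on both measures. Over the stretch of these short transcripts that counts after subtraction of the fragment length, 1 fragment was worth 0.306 FPKM for Hist1h4f, and 0.093 FPKM for the longer Hist1h1c. These depths cover counting error only.

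Every member has a place in the data. The 6 genes Hist1h1t, Hist1h2aa, Hist1h2ba, Hist1h2bq, Hist1h2br and Hist1h4n were listed at 0 in all 6 libraries. Hist1h1t, Hist1h2aa and Hist1h2ba are best known from the male germ line. Another 3, Hist1h2ao, Hist2h2aa2 and Hist2h3c1, stayed under 0.01 FPKM. A minimum of 1 FPKM in 3 libraries was set for testing, and 33 members passed it: 3 H1, 8 H2A, 9 H2B, 3 H3 and 10 H4 genes. Among the 35 untested members, no value exceeded 3.23 FPKM, which was Hist1h2bm in isotype library 3. Of the 31 tested members with a fragment estimate, 14 had under 10 fragments per library on average. At 10 fragments the counting error alone is 31.6% of the value.

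Near-identical copies limit what a value means. The share of a member's 50-base stretches found also in another gene was 8.5% for Hist1h1c, 31.5% for Hist3h2a, 30.1% for Hist1h2bc, 47% for Hist1h3c, 28.9% for Hist1h4i, 59.4% for Hist1h2bj and 0% for Hist2h2be. It was at least 50% in 33 of the 68 members. These shares are over the GENCODE M21 transcripts, of 1560 bases for Hist1h1c, 2146 for Hist3h2a and 727 for Hist1h4i. The RefSeq lengths behind the fragment estimates were shorter, at 725, 508 and 403 bases. Shares were not computed over those lengths, so the sharing behind the measured values may be different. The 4 members at 100% (Hist1h2bq, Hist1h2br, Hist2h2aa2 and Hist2h3c1) were at or near 0 in every library. How the authors' program placed reads that fit several copies is not stated in the sources used here, so single values are uncertain between copies. The H4 genes are no exception, at 54.6% for Hist1h4b, 71.5% for Hist1h4k and 89.8% for Hist1h4m. Hist3h2a overlaps Trim17, and several H2A genes overlap predicted genes, which adds the same uncertainty.

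**Figure D1:**
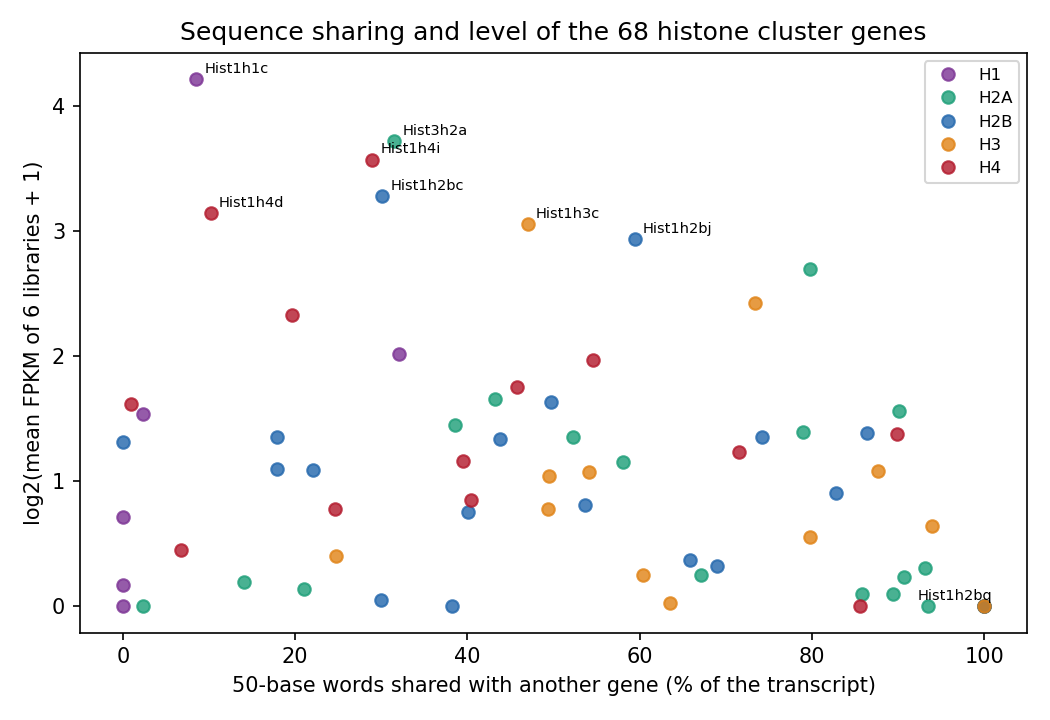
Each point is 1 of the 68 histone cluster genes, coloured by histone type: the percentage of its 50-base stretches that also occur in another gene (horizontal) against log2 of the mean FPKM of the 6 libraries plus 1 (vertical). Hist1h1c, at 8.5% shared, is the highest, and the points at 100% lie at 0.

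Summed levels of the histone types differed in direction between the groups. The summed level of the cluster H1 genes was 18.5, 16.8 and 22.7 FPKM under the isotype and 32.0, 26.1 and 23.8 with DTA-1. All DTA-1 sums lay above all isotype sums, with means of 19.3 ± 2.99 and 27.3 ± 4.27 FPKM (SD, n = 3). Hist1h1c alone made up 75.5% of the H1 total, and without it the H1 means were 6.66 ± 2.85 and 4.78 ± 0.73 FPKM. The H1 sum therefore carries the sign of 1 gene. It also leaves out H1 genes outside the clusters, of which the tested H1f0 and H1fx had lower means with DTA-1. The mean of H1foo was 0.068 FPKM under the isotype and 0.118 with DTA-1, and H1fnt and Hils1 were listed at 0. H1f0 measured 34.7 ± 6.35 FPKM under the isotype and 26.15 ± 4.31 with DTA-1, and H1fx 5.46 ± 2.44 and 4.27 ± 1.15, both with overlap. The cluster sum is thus not the whole supply of linker histone RNA.

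The H2A sums were 26.2, 27.0 and 34.0 FPKM under the isotype and 23.2, 35.9 and 27.3 with DTA-1, and overlapped throughout. Hist3h2a made up 42.2% of them. The H2B sums were 43.6, 26.3 and 32.3 FPKM against 26.7, 26.1 and 27.4, with means of 34.1 ± 8.81 and 26.7 ± 0.64. The high isotype library was the first, in which Hist1h2bj alone reached 17.2 FPKM, and without that library the log2 ratio of the H2B means went from -0.35 to -0.13. The 17 H2B genes other than Hist1h2bc and Hist1h2bj, left out after their values were seen, summed to 21.6, 16.2 and 16.9 FPKM under the isotype and 11.6, 11.1 and 12.8 with DTA-1.

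The H3 sums were 30.2, 11.5 and 25.8 FPKM under the isotype and 11.3, 15.2 and 9.56 with DTA-1. Isotype libraries 1 and 3 were high, and isotype library 2 lay within the DTA-1 range, which leaves means of 22.5 ± 9.77 and 12.01 ± 2.88. The H4 sums were 54.6, 32.8 and 42.3 FPKM against 26.9, 29.3 and 31.5, so that every isotype value exceeded every DTA-1 value. The H4 means were 43.2 ± 10.9 and 29.2 ± 2.27, a log2 ratio of -0.57, or -0.36 without isotype library 1. Over all 68 members the means were 148 ± 30.3 and 124 ± 7.33 FPKM, and the groups overlapped. That log2 ratio was -0.26, with -0.13 without isotype library 1 and -0.41 without isotype library 2.

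**Figure D2:**
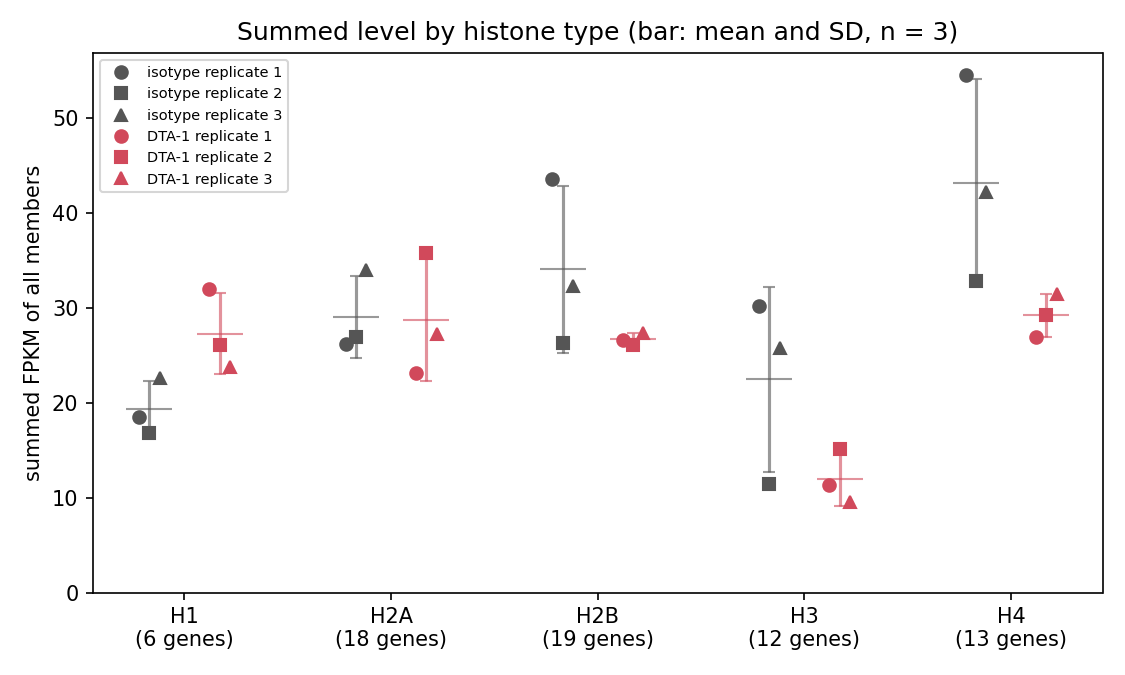
Summed FPKM of all members of each histone type (vertical, from 0) in the 3 isotype (grey) and 3 DTA-1 (red) libraries, with marker shapes for replicate numbers, horizontal bars for means and vertical bars for SDs. H4 sums with DTA-1 lie between 26.9 and 31.5 FPKM, below all isotype sums, and H1 sums lie above theirs.

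Gene by gene, no histone cluster member passed the threshold. The test was limma on log2(FPKM + 1) over 10501 genes with Benjamini-Hochberg adjustment at 0.05, which called 3 genes higher (0.0286%) and 1 lower (0.00952%) with DTA-1 among all tested genes. At an unadjusted p under 0.05, 3 of the 33 tested members were higher (9.09%) and 7 lower (21.2%), against 6.22% and 7.73% of all tested genes. The share of members on the higher side was thus near the background, and the share on the lower side above it. Groups did not overlap for the same counts, 3 higher and 7 lower, where 11.2% and 10.5% of all tested genes had no overlap. Leaving out isotype library 1, 4 of the 26 members then tested were lower at that unadjusted p, against 7.1% of all genes. Leaving out isotype library 3, 4 of 25 were lower, against 8.43% of all genes, and leaving out isotype library 2, 9 of 30, against 8.75%. Hist1h2bn and Hist1h4f were not tested in these 3 fits.

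Of the 7 lower members, Hist1h2bn and Hist1h4f reached 1 FPKM in isotype libraries alone, and so entered the test only through the group in which they were high. The minimum thus fixed their sign and their lack of overlap. Without Hist1h2bn and Hist1h4f, 5 of 31 members (16.1%) were lower and 3 higher. With no minimum, 62 members were fitted, of which 9 (14.5%) were lower and 3 higher, against 6.44% and 4.97% of the 16827 genes so fitted. In direction, 24 of the 33 log2 fold changes were below 0 and 9 above, with a median of -0.32, beside 0.014 for all tested genes. Without Hist1h2bn and Hist1h4f, 22 were below 0 and 9 above, with a median of -0.28. The median of the members was -0.18 without isotype library 1 and -0.18 also with no minimum. It was -0.15 with a pseudocount of 5 and -0.47 with one of 0.1, and the members higher and lower at the unadjusted p stayed 3 and 7 in number.

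By type, the medians were -0.14 for 3 H1, -0.02 for 8 H2A, -0.20 for 9 H2B, -0.59 for 3 H3 and -0.45 for 10 H4 genes. All 3 tested H3 and all 10 tested H4 genes were below 0, while H2A genes split into 4 above and 4 below, and H2B genes into 4 above and 5 below. Among those below 0, the signs of the H4 gene Hist1h4f and the H2B gene Hist1h2bn were fixed by the minimum. The signs of the H1 and H2A medians depended on single libraries: without isotype library 1 they were 0.16 and 0.14, and the H2A median was also above 0 without isotype library 3 (0.09) or DTA-1 library 1 (0.02). The H2B median was -0.06 without isotype library 2. The H3 median ranged from -1.06, without isotype library 2, to -0.44, and the H4 median from -0.50 to -0.32 over the 6 fits that each left out 1 library.

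**Figure D3:**
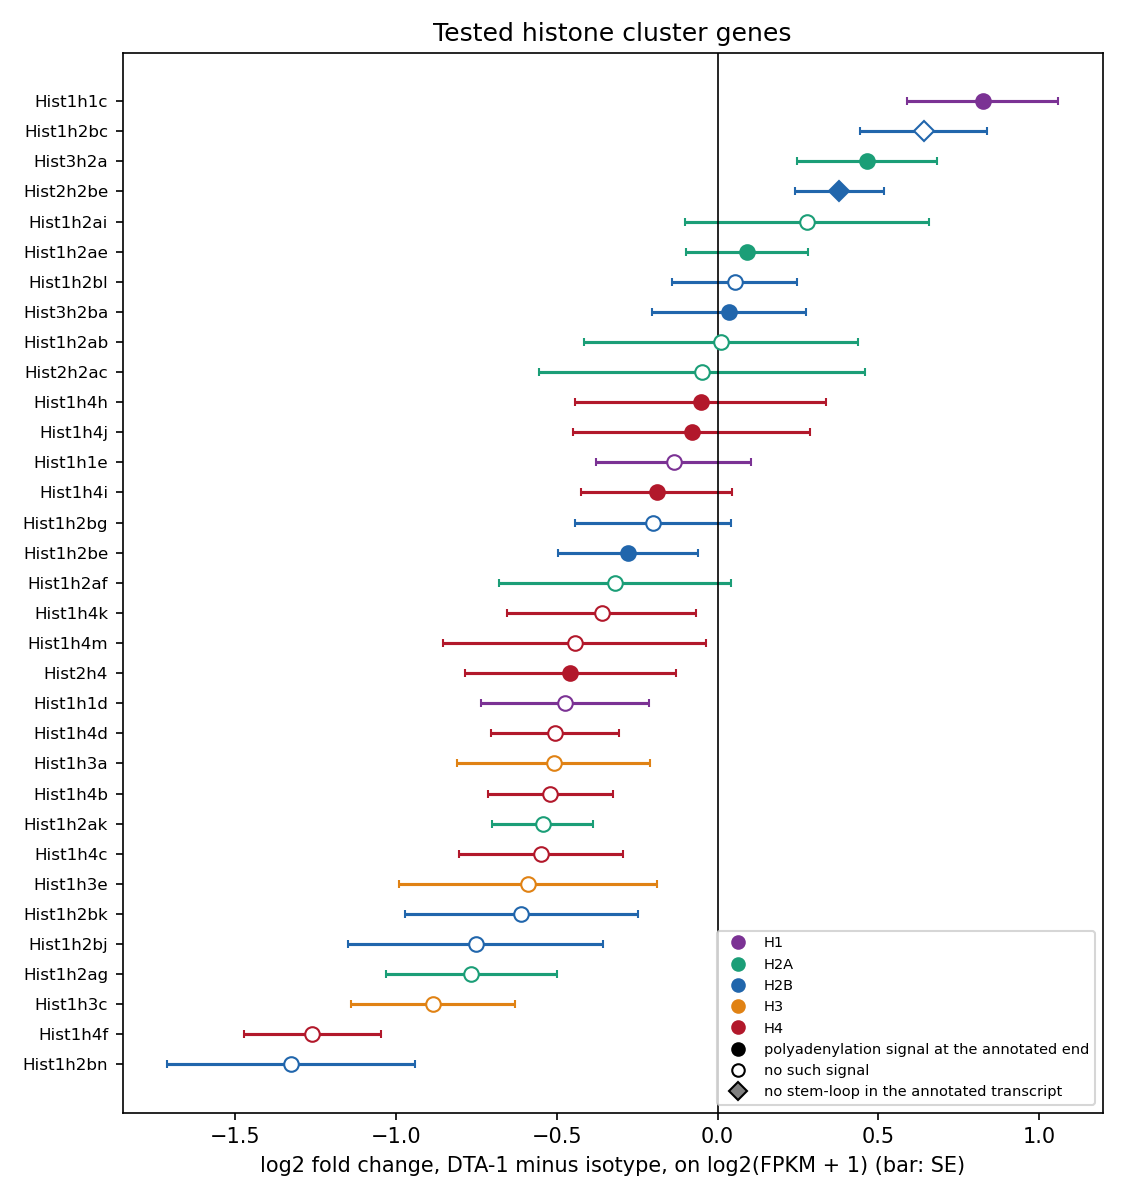
Log2 fold change of each of the 33 tested members, DTA-1 minus isotype on log2(FPKM + 1), with its SE (horizontal bars), coloured by histone type. Filled symbols have a polyadenylation signal at the annotated transcript end and diamonds have no stem-loop in the annotated transcript; Hist1h1c at 0.82 is the highest and Hist1h2bn at -1.33 the lowest.

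Hist1h1c encodes the linker histone H1.2, 1 of the somatic H1 variants. Its gene lies on chromosome 13 at 23738808 to 23740367, plus strand. It measured 8.55, 11.97 and 17.5 FPKM under the isotype and 26.5, 21.4 and 19.6 with DTA-1. Every DTA-1 library lay above every isotype library, the nearest being isotype library 3. The log2 fold change was 0.82 ± 0.23 (SE), with an unadjusted p of 0.00744 and an adjusted p of 0.176 by limma. With an estimated 191 fragments per library, Hist1h1c had the most of the members with an estimate, and its counting error was 7.2%.

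The other H1 genes did not share this pattern. Hist1h1e, which encodes H1.4, measured 5.24, 2.16 and 2.58 FPKM under the isotype and 2.95, 2.75 and 2.58 with DTA-1. Apart from a high isotype library 1 its values were close together, and without that library its log2 fold change went from -0.14 to 0.16. Hist1h1d, which encodes H1.3, measured 3.56, 2.27 and 1.39 FPKM under the isotype and 2.02, 1.35 and 0.868 with DTA-1, with overlap between the groups. Hist1h1a and Hist1h1b, the other replication-dependent H1 genes, were untested, and Hist1h1b was highest at 1.11 FPKM in isotype library 3.

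Among H2A genes the most abundant was Hist3h2a, on chromosome 11 at 58954685 to 58956830. It measured 6.75, 12.1 and 11.8 FPKM under the isotype and 11.96, 16.04 and 14.5 with DTA-1. DTA-1 library 1 lay just under the highest isotype value, so the groups touched, and the log2 fold change was 0.46 ± 0.22 (unadjusted p 0.0644, limma adjusted p 0.394). Without isotype library 1 the log2 fold change was 0.22. Hist1h2af followed with 2.83, 9.48 and 6.83 FPKM against 3.99, 6.54 and 3.31, and 79.7% of its stretches were shared with other genes. Hist1h2ae measured 2.34, 2.01 and 1.73 FPKM against 1.5, 3.0 and 2.32. The groups overlapped for both genes.

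A pair of H2A genes lay lower with DTA-1. Hist1h2ak measured 2.51, 1.49 and 2.13 FPKM under the isotype and 1.13, 1.11 and 0.965 with DTA-1. Its groups did not overlap, with a log2 fold change of -0.54 ± 0.16 (unadjusted p 0.00837, limma adjusted p 0.181). Hist1h2ag measured 3.19, 1.06 and 2.83 FPKM against 0.619, 1.04 and 1.03. Its isotype library 2 exceeded the highest DTA-1 library only in the second decimal, and the log2 fold change was -0.77 ± 0.27 (unadjusted p 0.0198, limma adjusted p 0.249). Without isotype library 1, isotype library 3 or DTA-1 library 1 its unadjusted p was 0.0642, 0.0804 or 0.0634. Both rest on about 10 fragments per library.

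H2B genes lay on both sides. Hist1h2bc, on chromosome 13 at 23684199 to 23692908, measured 4.94, 5.96 and 9.29 FPKM under the isotype and 10.8, 11.1 and 10.3 with DTA-1. All DTA-1 values were higher and lay close together, with a log2 fold change of 0.64 ± 0.20 (unadjusted p 0.0113, limma adjusted p 0.207). Hist2h2be, on chromosome 3 at 96221119 to 96223738, has a transcript of 2620 bases that shares no 50-base stretch with another gene. It measured 1.23, 0.891 and 1.37 FPKM under the isotype and 1.86, 1.72 and 1.82 with DTA-1. Its groups did not overlap either, and the log2 fold change was 0.38 ± 0.14 (unadjusted p 0.0244, limma adjusted p 0.271). Without isotype library 2 or any 1 of the DTA-1 libraries that unadjusted p was between 0.0505 and 0.0679.

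Other H2B genes lay lower with DTA-1 or did not separate. Hist1h2bj measured 17.2, 4.14 and 6.12 FPKM under the isotype and 4.29, 3.96 and 4.30 with DTA-1. Apart from isotype libraries 1 and 3 its values were alike, and the log2 fold change of -0.75 ± 0.40 was -0.22 without isotype library 1. Hist1h2bn measured 1.20, 5.38 and 1.88 FPKM under the isotype and 0, 0.413 and 0.812 with DTA-1. Its groups did not overlap (log2 fold change -1.33 ± 0.38, unadjusted p 0.00841, limma adjusted p 0.181; log2 fold change -0.50 or -2.74 with a pseudocount of 5 or 0.1), but 86.4% of its stretches were shared, and it rested on 43 fragments in the isotype libraries and 7 under DTA-1. Hist1h2bg measured 1.85, 3.29 and 1.82 FPKM against 1.07, 2.51 and 2.12, with overlap.

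Hist1h3c was the most abundant H3 gene, on chromosome 13 at 23744973 to 23745602. It measured 11.8, 5.74 and 12.4 FPKM under the isotype and 5.19, 4.90 and 3.996 with DTA-1. Isotype libraries 1 and 3 were high and isotype library 2 lay near the DTA-1 values, though above them. The log2 fold change was -0.89 ± 0.26 (unadjusted p 0.00824, limma adjusted p 0.181). It remained between -1.20 and -0.71 with each library left out. Hist1h3e was likewise lowest in isotype library 2 among the isotype libraries, with 7.83, 2.14 and 6.77 FPKM against 2.29, 4.91 and 2.25 with DTA-1, and its groups overlapped. The third H3 gene by level, Hist1h3i, was untested and was high only in isotype library 1, at 3.05 FPKM against 0.202 to 1.34 elsewhere. A pair of untested members, Hist1h3h and the H4 gene Hist4h4, also had no overlap in FPKM. Hist1h3h measured 0.595 to 0.834 FPKM under the isotype and 0.193 to 0.492 under DTA-1, and Hist4h4 0.246 to 0.808 and 0 to 0.24. In estimated fragments their groups met, at 4, 3 and 5 against 1, 3 and 3 for Hist1h3h. For Hist4h4 the fragments were 3, 1 and 4 against 1, 1 and 0.

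The H4 genes encode 1 and the same protein from many copies. Hist1h4i was the most abundant, at 17.1, 8.33 and 10.3 FPKM under the isotype and 8.70, 9.91 and 11.1 with DTA-1. Only isotype library 1 stood apart, and its log2 fold change went from -0.19 to 0.08 without that library. Hist1h4d measured 13.0, 7.77 and 7.78 FPKM against 5.40, 6.58 and 6.73. Its groups did not overlap, and the log2 fold change was -0.51 ± 0.20 (unadjusted p 0.0335, limma adjusted p 0.308), or -0.28 without isotype library 1. That unadjusted p was between 0.053 and 0.102 without isotype library 1, DTA-1 library 1 or DTA-1 library 2.

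A pair of less abundant H4 genes separated as well. Hist1h4b measured 3.28, 3.97 and 3.47 FPKM under the isotype and 3.19, 2.09 and 1.498 with DTA-1. Its DTA-1 library 1 came close to the isotype values, and the log2 fold change was -0.52 ± 0.19 (unadjusted p 0.0275, limma adjusted p 0.283). Without isotype library 2 or 3, or DTA-1 library 2 or 3, that unadjusted p was between 0.0606 and 0.109, and without DTA-1 library 3 the log2 fold change was -0.34. Hist1h4f measured 2.55, 2.38 and 1.53 FPKM against 0.385, 0 and 0.595. Its groups were well apart, and it had the smallest p of any member (log2 fold change -1.26 ± 0.21, unadjusted p 0.000319, limma adjusted p 0.0817). With a pseudocount of 5 or 0.1 its log2 fold change was -0.42 or -2.77. That difference is 20 fragments over the isotype libraries and 3 over the DTA-1 libraries. Hist1h4c measured 6.52, 3.18 and 5.26 FPKM against 2.40, 2.47 and 4.31, with overlap.

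**Figure D4:**
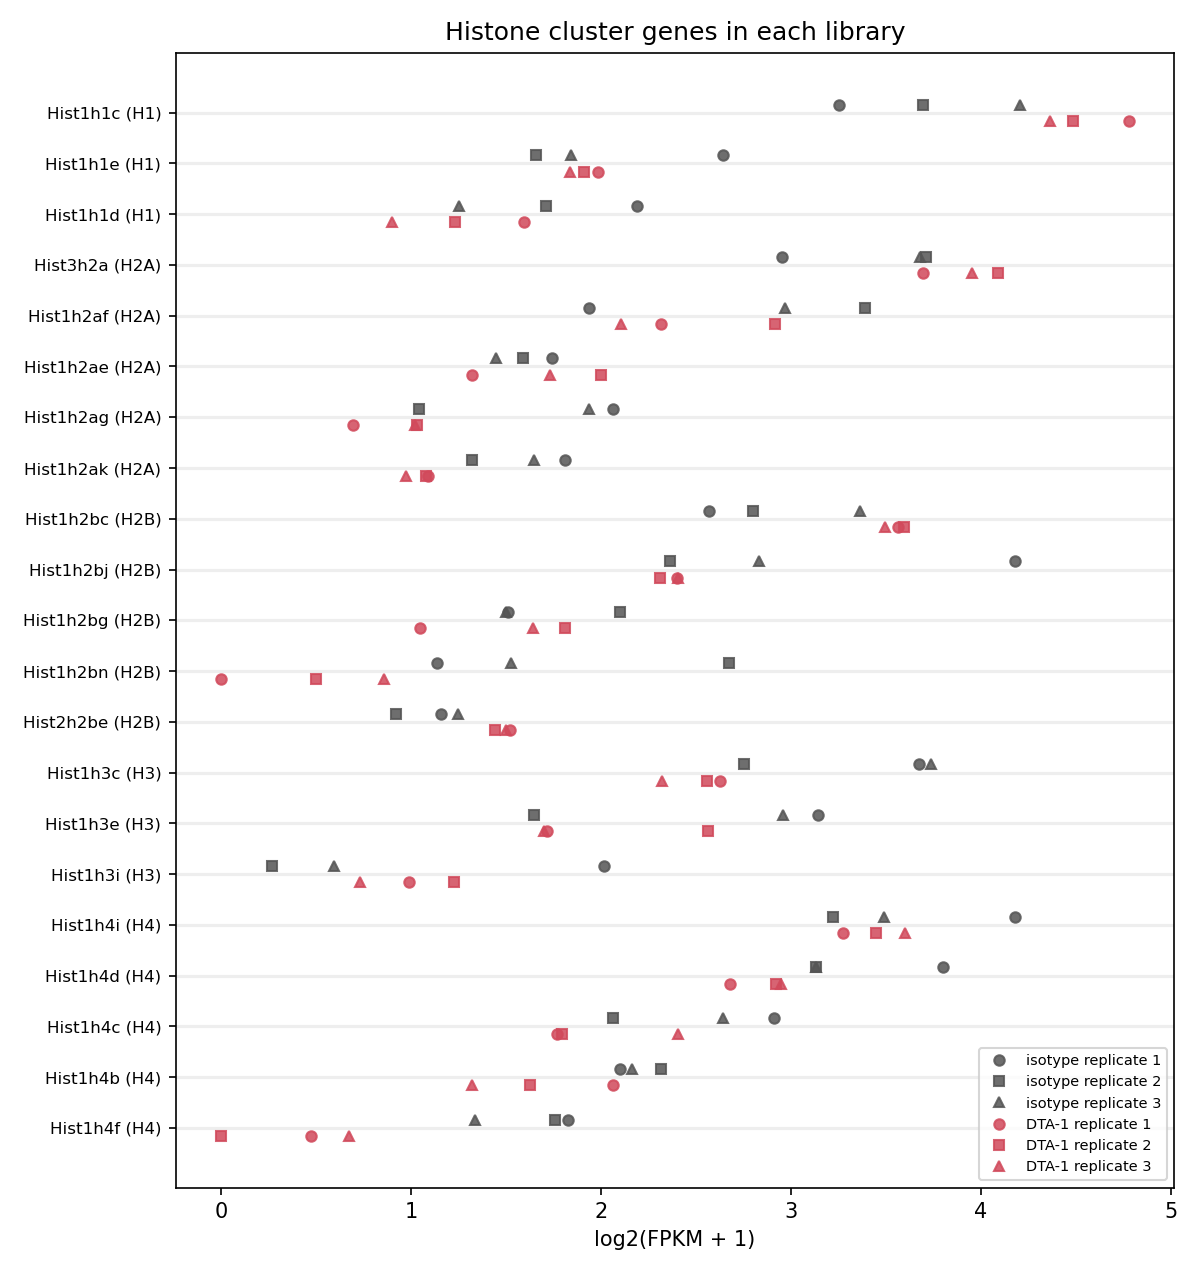
log2(FPKM + 1) of the 21 members named in full (rows, histone type in brackets) in the 3 isotype (grey) and 3 DTA-1 (red) libraries, with marker shapes for replicate numbers. Hist1h1c, Hist1h2bc and Hist2h2be have all red points to the right of the grey ones, and Hist1h4f, Hist1h2bn and Hist1h3c have them to the left.

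The members were also described by their annotated transcript ends, which their choice did not use. A polyadenylation signal (AATAAA or ATTAAA in the last 50 bases of the annotated transcript) was found in 14 members, of which 10 were tested. Of these, 5 were above 0 and 5 below, with a median log2 fold change of -0.01. At an unadjusted p under 0.05, 2 were higher (Hist1h1c and Hist2h2be) and 0 lower by limma. Of the 23 tested members with no such signal, 4 were above 0 and 19 below, with a median of -0.51, and 1 (Hist1h2bc) was higher and 7 lower at that unadjusted p. Among all tested genes 6.22% were higher and 7.73% lower at that p. Hist1h2bn and Hist1h4f, which passed the minimum through isotype libraries alone, are among these 7. For 6 of the 23 the annotated transcript ends 0 or 1 bases after the stop codon. The bases searched there were almost all coding sequence, so a signal farther on could not be found. Hist1h2ak and Hist1h2bn, both among the 7 lower, are of this kind. The difference between the sets of members was not tested.

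By stem-loop, all 25 tested members that hold one had 5 log2 fold changes above 0 and 20 below, with a median of -0.45. Hist1h2bc and Hist2h2be, the tested members long enough for a search and without a match, had log2 fold changes of 0.64 and 0.38. The 9 tested members with a stem-loop and a polyadenylation signal had 4 above 0 and 5 below, with a median of -0.05. The 16 tested members with a stem-loop and no polyadenylation signal had 1 log2 fold change above 0 and 15 below, with a median of -0.52. Hist1h4f, whose sign was fixed by the minimum, is among these and among the 25. Annotated transcripts of the 16 ended 3 (Hist1h4m) to 4884 bases (Hist1h1d) after the stem-loop, with 23 for Hist1h2ag and Hist1h2bj. Where they end so soon, a signal farther on could not be found. The signals of Hist1h1c and Hist3h2a lie beyond their RefSeq lengths of 725 and 508 bases. The sets were not tested against each other. For the latter 16, centred log2 means, relative to the mean of 6 libraries, were 0.64, -0.19 and 0.32 in the isotype libraries and -0.37, -0.17 and -0.23 in those given DTA-1. Isotype library 2 thus lay at the level of the DTA-1 libraries. The 10 tested members with a polyadenylation signal had means of -0.03, -0.23 and 0.16 against 0.06, 0.10 and -0.06, with overlap.

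How RNA was selected for the libraries is not stated in the labels. Small RNA genes whose transcripts lack a poly(A) tail differed between libraries, and 15 of 124 were tested. Of these, 2 passed the adjusted threshold in limma (adjusted p 5.28e-05 each). Snora15 was at 179, 96.0 and 71.2 FPKM under the isotype and listed at 0 in each DTA-1 library. Snora69 reached 43.7, 24.8 and 24.5 FPKM under DTA-1, with 0 listed for all isotype libraries. In such files an exact 0 can be a failed estimate, so no fold is given. The centred log2 mean of the 15 was -1.92 in isotype library 2, against 0.38 and 0.50 in isotype libraries 1 and 3 and 0.47, 0.85 and -0.28 in those given DTA-1. Isotype library 2, low for stem-loop histone transcripts, was thus also low for these RNAs. Of the 15 small RNA genes, 13 were higher with DTA-1 and 2 lower. Isotype libraries 1 and 3 lay within the range of the DTA-1 libraries for their mean, and isotype library 2 lay below it. Of the 16 stem-loop members without a polyadenylation signal, 1 was higher and 15 lower. DTA-1 library 2 was the highest for the small RNAs, at 0.85, and stood at -0.17 for those 16 members. The part of RNA selection or size in the histone values was not tested.

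Pairs of members that start back to back could differ widely in level. There were 14 such pairs with starts within 1000 bases, and in 13 of them an H2A gene faced an H2B gene. Hist1h2bc reached 4.94 to 11.1 FPKM while Hist1h2ac, which starts 250 bases away on the other strand, stayed at 0 to 0.329 FPKM. Hist3h2a reached 6.75 to 16.04 FPKM while its neighbour Hist3h2bb-ps, the pseudogene, was listed at 0 in all but DTA-1 library 1, with 0.213 FPKM. In the pairs Hist1h2ag with Hist1h2bj and Hist1h2ak with Hist1h2bn, by contrast, both members had a lower mean under DTA-1. Hist2h2ac, which faces Hist2h2be, measured 3.64, 0 and 2.34 FPKM under the isotype and 2.10, 0.884 and 1.39 with DTA-1, and did not separate.

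Of the listed genes that act on histone transcripts and proteins, none passed the adjusted threshold of limma. Slbp, which encodes the stem-loop binding protein, measured 72.0, 61.6 and 52.1 FPKM under the isotype and 37.9, 34.9 and 41.3 with DTA-1. Its groups did not overlap (log2 fold change -0.68 ± 0.14, limma adjusted p 0.11). Npat, the coactivator of histone gene transcription, measured 9.33, 8.28 and 7.12 FPKM against 7.998, 6.46 and 7.64, and overlapped. Of the 20 tested genes for histone pre-mRNA processing, 0 were higher and 3 lower at an unadjusted p under 0.05. Of the 20 log2 fold changes 15 were below 0, with a median of -0.14. Beside Slbp, these included Casp8ap2, a factor of the histone locus body, at 15.4 ± 3.19 and 10.8 ± 0.443 FPKM.

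Of the 23 tested genes for histone chaperones and import, 1 was higher and 9 lower at that p, and 18 log2 fold changes were below 0, with a median of -0.29. Chaf1a, the large subunit of the chromatin assembly factor CAF-1, measured 33.1 ± 6.28 FPKM under the isotype and 18.6 ± 1.83 with DTA-1 (limma adjusted p 0.103). Of the 12 tested histone genes outside the clusters, 0 were higher and 4 lower. H2afz, which encodes the replacement variant H2A.Z, measured 445 ± 73.3 and 295 ± 20.46 FPKM. At these levels it exceeded all 68 cluster genes together, on the same per-length scale. Most cluster mRNAs normally lack a poly(A) tail, and how RNA was selected is not stated. The part of RNA selection in this comparison was not tested, so it may not reflect amounts in the cells. H2afx, a variant gene whose transcript also held the stem-loop motif, measured 86.2, 38.5 and 73.8 FPKM against 57.0, 52.6 and 51.2, with isotype library 2 again the lowest.

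The 41 S phase and replication genes on the list were all below 0, with a median of -0.62, and 35 were lower at an unadjusted p under 0.05. Their centred means were 0.60, 0.17 and 0.12 in the isotype libraries and -0.26, -0.33 and -0.29 in those given DTA-1. Isotype library 2 lay above the DTA-1 libraries for S phase genes, unlike for stem-loop histone genes. Cdkn1a, which encodes the cell cycle inhibitor p21, measured 339 ± 27.8 and 554 ± 97.6 FPKM (limma adjusted p 0.108). Bulk RNA cannot tell fewer cells in S phase from less histone RNA per cell.

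**Figure D5:**
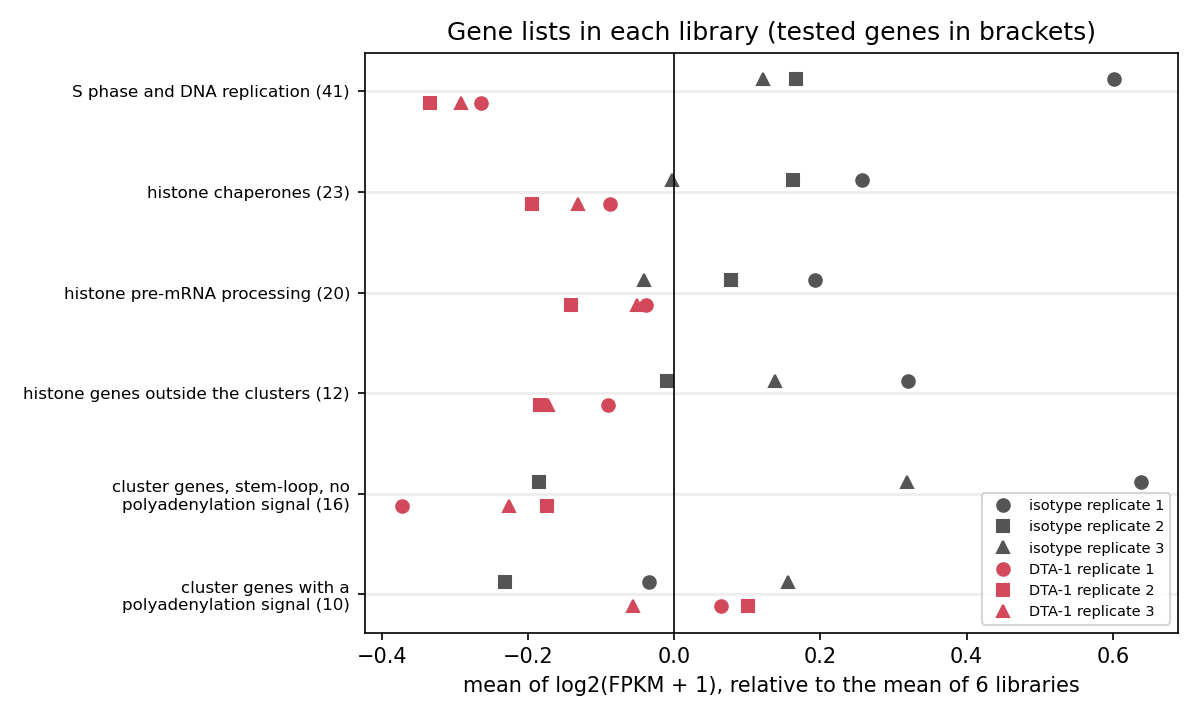
Mean log2(FPKM + 1) of each gene list relative to the mean of the 6 libraries (horizontal) for the 3 isotype (grey) and 3 DTA-1 (red) libraries, with the number of tested genes in brackets. For S phase genes all grey points lie at 0.12 or above, whereas for stem-loop cluster genes isotype library 2 lies at -0.19, among the red points.

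The cells carried the markers of ILC2: all 12 ILC2 genes on the list, among them Gata3, Il1rl1 and Il5, had at least 1 FPKM in 3 libraries. Tnfrsf18, which encodes GITR, measured 170 ± 27.8 and 203 ± 46.8 FPKM. Of the markers of other cells, 1 of 6 T cell genes (Cd3g), 1 of 5 B cell genes (Cd79b), 1 of 9 myeloid genes (Cd68) and 2 of 8 structural lung genes (Epcam and Pecam1) reached that level. The structural markers summed to between 36.0 and 46.7 FPKM under the isotype and between 21.8 and 39.9 with DTA-1, with Sftpc, Col1a1 and Cdh5 under 1 FPKM in every library. T cell markers summed to 10.6 to 11.7 and 8.4 to 9.76 FPKM, with Cd3e, Cd4 and Cd8a under 1 FPKM in every library. Their part in the histone values was not tested.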

How the data were processed

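The authors deposited 1 table per library with a symbol and a value per gene. The unit is not named in the sources used here; the values were taken as FPKM, since their smallest steps scale with transcript length. The authors made these FPKM values from reads that TopHat placed on mm10, per the submitters' processing notes, and a directional kit, per the labels' protocols. The quantifying program, its annotation, gene lengths, use of strand and versions were not given in the sources used here, so overlapping and near-identical genes carry uncertain reads. Groups and replicate numbers came from the sample titles; treatment tags of replicates 2 and 3 count upward (IgG3b, IgG4b; DTA-2, DTA-3), unlike the titles, and were not used.

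The 10501 genes that reached 1 FPKM in 3 or more libraries were tested with limma 3.58.1 in R 4.3.3 on log2(FPKM + 1), with empirical Bayes (trend, robust), 2-sided, group as the single term and Benjamini-Hochberg adjustment over all tested genes. Fold changes on this scale understate changes of low genes. The planned test suited normalized values; no count test was run. The procedure was tested on simulated data. The members, gene lists, tests and naming rule were chosen with earlier results of these data known. Members named in full were the tested ones at an unadjusted p under 0.05 or without overlap, and the top 3 by mean per histone type; of the other genes, up to 3 per list with the smallest p, and Slbp, Npat, Cdkn1a and Tnfrsf18. Further names were chosen after their values were seen.

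Fragments per library were estimated from low values of single-exon RefSeq genes of at least 700 bases, of which 89.1% to 96.2% came out within 0.1 of a whole fragment (20% expected without steps); the mean length taken off each transcript was 214 to 253 bases. With RefSeq lengths, 120 of 157 low member values (76.4%) came out whole. Stop codons and transcripts were from GENCODE M21, promoters from RefSeq (GRCm38.p6). Alternatives covered the pseudocount (0.1 and 5), the filter, scaling, moderation, a replicate block, leaving out each library and members with 10 or more fragments. Figures used matplotlib 3.10.9 and pandas 2.3.3 in Python 3.11.15.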

Additional observations from a re-analysis of the deposited data

How the results depend on the processing

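Of 262 values that the alternatives gave for the 20 tested members named in full, 256 kept their direction and their side of the adjusted threshold. The exceptions were Hist1h1e at 0.161 and Hist1h4i at 0.084 without isotype library 1 (lowest -0.332 and -0.395), Hist1h2bg at 0.024 without DTA-1 library 1 (lowest -0.358), Hist1h2ae at -0.066 without DTA-1 library 2 (highest 0.273), and the block fit below. With no filter, 1 gene was higher over all genes. With a mean of at least 5 FPKM, 8 members were tested. At an unadjusted p under 0.05, 2 of them were higher and 2 lower, against 6.28% and 6.95% of all genes in that fit. The same counts, 2 higher and 2 lower, had no overlap, but the share of all genes without overlap was not computed in that fit. Hist1h1c, the single H1 gene left, stood at 0.82. With equal totals, 2 genes were lower over all genes. Of the 17 tested members with 10 or more fragments, a choice made after seeing the data, 2 were higher (11.8%) and 4 lower (23.5%) at that p. The shares of all tested genes were 6.22% and 7.73%. With each library left out in turn, 0 to 3 genes were higher and 0 to 1 lower over all genes, and 2 to 3 members were higher and 4 to 9 lower at that p. In those fits 25 to 31 members were tested, and 3.53% to 7.18% of all genes were higher and 5.39% to 8.75% lower at that p. Members without overlap were then 3 to 4 higher and 6 to 10 lower. The shares of all genes without overlap were not computed there. Lack of overlap arises more easily with 1 library left out, so the 11.2% and 10.5% of the main fit do not apply. Whether the replicate numbers pair the libraries is not known. Deviations of same-numbered libraries from their group means correlated at 0.393, -0.101 and -0.129. Isotype library 1 correlated best with DTA-1 library 1, but isotype libraries 2 and 3 with DTA-1 libraries 3 and 2 (0.485 and 0.385). With 3 libraries per group such deviations depend on each other, so these values cannot decide it. With the replicate block, 59 genes were higher and 126 lower over all genes. Of 33 members, 4 were then higher and 11 lower at that p, against 6.24% and 8.78% of all genes. In that fit 2 members passed, Hist1h2bn (limma adjusted p 0.0441) and Hist1h4f (limma adjusted p 0.036), the same 2 that reached the minimum in isotype libraries alone. Depth limits single members: of the 31 tested members with an estimate, 14 had under 10 fragments a library.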
